A study of Homo sapiens with 18 samples.

Results

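The genes described here are 10 human regulators of neuronal splicing and RNA stability, ELAVL2, ELAVL3, ELAVL4, NOVA1, NOVA2, RBFOX1, RBFOX2, PTBP1, PTBP2 and SRRM4. They were chosen by name, as the entries of the expression table with those symbols, and all 10 were found among its 26372 symbols. RNA-seq libraries came from SH-SY5Y, an established cell line grown from a human neuroblastoma, infected with lentivirus made from the FUGW plasmid that carried ZNHIT3, a protein the series title connects with the assembly of small nucleolar ribonucleoproteins. The 3 constructs were wild-type ZNHIT3 (WT), ZNHIT3 with the C14R substitution (C14R) and ZNHIT3 with a short deletion, labelled 251 to 254 in replicate 1 (deletion). For the deletion the treatment labels of replicates 2 and 3 end at 255 and 256, and all deletion libraries were kept in 1 group, as titled.

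Libraries were made at day 0 and at day 18 of neuronal differentiation, with 3 libraries in each of the 6 groups. Per the labels' protocols all cells were infected 1 day after plating, and 48 hours after infection differentiation began in serum-free neurobasal/B27 medium with 50 ng/ml BDNF, 2 mM dibutyryl cyclic AMP, 10 µM all-trans retinoic acid and 20 mM KCl for the 18 days. No label states that the cells' own ZNHIT3 was removed, and none describes uninfected or empty-vector cells. ZNHIT3 itself, from the inserts and the cells' own gene together, lay between 531 and 542 FPKM in WT, 419 and 432 in C14R and 292 and 310.1 in the deletion at day 0, and between 1103 and 1193, 599.7 and 756, and 294 and 313 at day 18. The medium, its added factors and the time since infection all changed with day, so their parts cannot be told apart here. Likewise the ZNHIT3 level differed with construct, so variant and level cannot be told apart. The labels do not say whether replicates were separate cultures, so the p-values measure the spread between these libraries, which may be technical.

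Neuronal splicing is set by a small group of RNA-binding proteins that act against one another. PTBP1 binds pyrimidine-rich RNA and holds neuronal exons out of the mRNA in non-neuronal cells, and neurons replace it with its relative PTBP2 as they form. NOVA, RBFOX and the serine/arginine-rich protein SRRM4 (nSR100, the activator of neuronal microexons) act in the opposite direction on many exons, and the neuronal ELAVL proteins (HuB, HuC and HuD) stabilise mRNAs with AU-rich elements and also affect splicing. Values are in FPKM, fragments scaled to transcript length and library size, with 1 value per gene, so they show how much RNA of a regulator was present and not which isoforms it was spliced into, nor the protein. Because FPKM is scaled per length, levels of different genes were set side by side. The annotation behind those lengths is not given, so the order of genes with close values is uncertain.

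Setting genes side by side also needs reads that tell the related genes apart. For each gene the longest complete coding sequence in GENCODE release 29 was aligned. Identical bases made up 72.9% of those aligned for ELAVL2 and ELAVL3. The share was 75.3% for ELAVL2 and ELAVL4 and 75.1% for ELAVL3 and ELAVL4. PTBP1 and PTBP2 were identical at 65.4%, NOVA1 and NOVA2 at 68.2% and RBFOX1 and RBFOX2 at 63.2%. Across all annotated transcripts in full, no pair had a stretch of 50 bases in common. In the aligned coding sequences the longest identical stretch was 47 bases, between RBFOX1 and RBFOX2. The most alike ungapped stretch of 90 bases is printed for the ELAVL and PTBP families because even there the members differ, at 19 of the 90 positions among the 3 ELAVL genes and at 20 between PTBP1 and PTBP2. No such stretch was compared for the NOVA and RBFOX pairs. Capitals mark the positions that differ.
ELAVL2: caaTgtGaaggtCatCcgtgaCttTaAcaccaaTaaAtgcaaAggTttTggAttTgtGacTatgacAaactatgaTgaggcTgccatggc
ELAVL3: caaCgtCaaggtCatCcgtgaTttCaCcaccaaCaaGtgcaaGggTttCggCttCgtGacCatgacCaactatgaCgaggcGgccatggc
ELAVL4: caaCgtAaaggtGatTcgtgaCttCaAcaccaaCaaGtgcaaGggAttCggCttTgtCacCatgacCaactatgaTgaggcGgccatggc
PTBP1: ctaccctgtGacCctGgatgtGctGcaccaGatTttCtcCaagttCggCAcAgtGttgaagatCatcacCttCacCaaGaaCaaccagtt
PTBP2: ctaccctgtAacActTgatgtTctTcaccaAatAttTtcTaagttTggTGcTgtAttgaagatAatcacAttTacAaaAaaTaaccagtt
The stretches begin at coding base 999 in ELAVL2, 933 in ELAVL3, 1038 in ELAVL4, 669 in PTBP1 and 567 in PTBP2, counted from the first base of the start codon. In the same annotation PTBP1 shares 62 exonic bases with the microRNA gene MIR4745 on its own strand, ELAVL3 shares 256 with AC008481.3 on its own strand, and SRRM4 shares 25 with AC084361.1 on the opposite strand. How the deposited values divided reads in those bases is not given in the sources used here.

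The 10 genes covered a wide range of levels. In all 3 constructs at day 0 the order by mean FPKM was ELAVL4, RBFOX2, PTBP1, ELAVL3, PTBP2, ELAVL2, NOVA2, NOVA1, SRRM4 and RBFOX1. The libraries of neighbours in that order overlapped for NOVA1 and SRRM4 in every construct and for ELAVL2 and NOVA2 in C14R. At day 18 the order was ELAVL4, RBFOX2, ELAVL3, PTBP1, ELAVL2, PTBP2, NOVA1, SRRM4, NOVA2 and RBFOX1 in all 3 constructs, so that PTBP1 had dropped below ELAVL3 and NOVA2 below NOVA1 and SRRM4. There the libraries of PTBP1 and ELAVL2 overlapped in WT and C14R, and those of ELAVL2 and PTBP2 in C14R. Against the 13785 genes with a mean of at least 1 FPKM over the 18 libraries, ELAVL4 lay at percentile 97.9, RBFOX2 at 96.3, ELAVL3 at 91.2 and PTBP1 at 90.0, while NOVA1, NOVA2 and SRRM4 lay between 38.0 and 44.6. RBFOX1, with a mean of 0.307 FPKM, was the 1 of the 10 genes below that minimum, and the remaining 9 were tested.

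**Figure D1:**
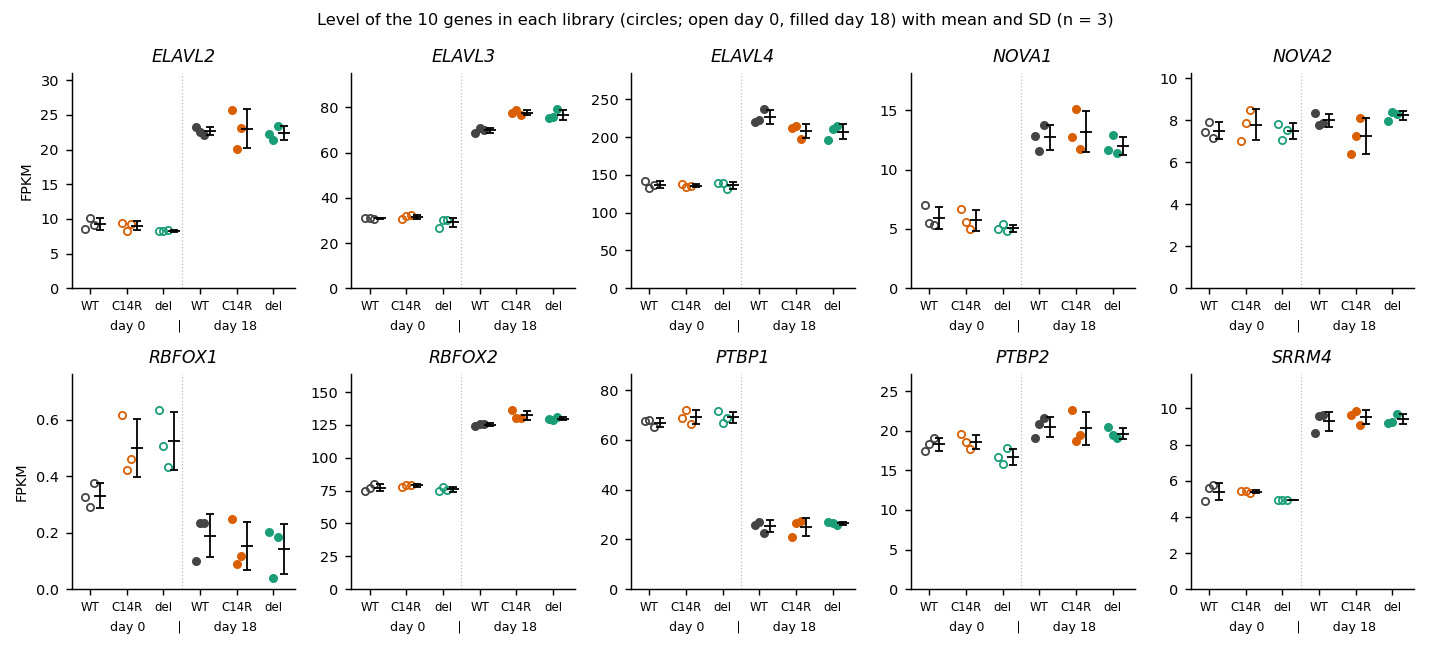
Level of each of the 10 genes in FPKM (vertical axis, linear, each panel on its own scale from 0) in the 18 libraries, grouped by construct (WT grey, C14R orange, deletion "del" green) and day. Circles are single libraries, open at day 0 and filled at day 18, and bars are the mean and SD of 3 libraries. ELAVL2, ELAVL3, ELAVL4, NOVA1, RBFOX2 and SRRM4 lie higher at day 18 in every library, PTBP1 and RBFOX1 lie lower in every library, and NOVA2 and PTBP2 overlap between the days. Within a construct the days did not overlap for 75.7% of all genes tested in WT, 71.8% in C14R and 77.7% in the deletion.

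Most of these regulators changed between day 0 and day 18, and those called moved in the same direction in each construct. In WT, 7 of the 9 genes tested rose from day 0 to day 18 (ELAVL2, ELAVL3, ELAVL4, NOVA1, RBFOX2, SRRM4 and, by little, PTBP2), PTBP1 fell, and NOVA2 did not pass the threshold. The median difference on the log2(FPKM + 1) scale was 0.69, against 0.03 over all genes tested. These counts were read against a broad background: 38.2% of all 13785 genes were called higher and 34.0% lower in WT (limma with Benjamini-Hochberg adjustment, threshold 0.05). In the deletion 7 rose and 1 fell, where 38.6% of genes were called higher and 34.4% lower. In C14R 6 rose and 1 fell, with PTBP2 and NOVA2 not past the threshold, where 37.9% and 35.0% of genes were called. Libraries of the days were without overlap for 7 of the 9 genes in WT, 7 in C14R and 9 in the deletion. That was also common over all genes tested, for 75.7% in WT, 71.8% in C14R and 77.7% in the deletion. A difference of 1 on this scale is close to a doubling for well-expressed genes and understates the change of genes near 1 FPKM. In a bulk library, fewer cells of a type and less RNA per cell cannot be told apart.

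**Figure D2:**
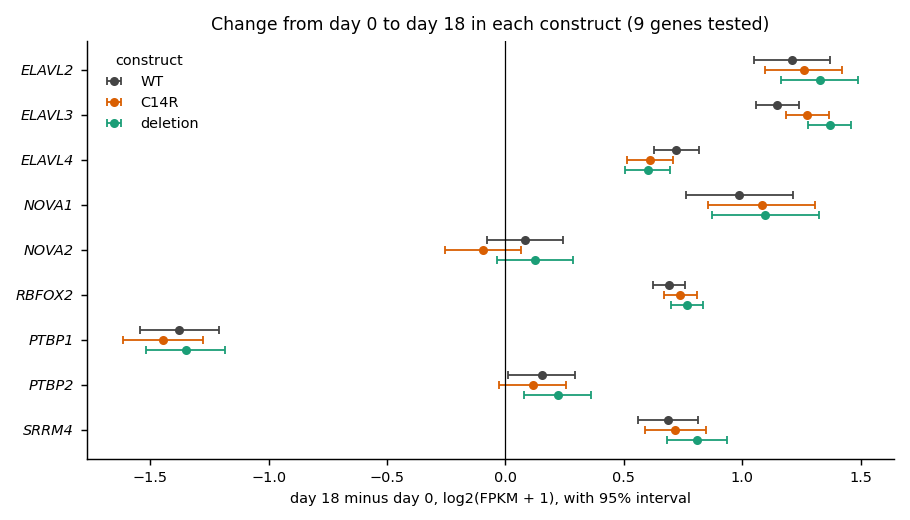
Difference between day 18 and day 0 in log2(FPKM + 1) (horizontal axis) with its 95% interval from limma for the 9 genes tested (vertical axis), in WT (grey), C14R (orange) and deletion (green). PTBP1 lies between -1.45 and -1.35, NOVA2 and PTBP2 lie between -0.09 and 0.22, and the other 6 genes lie between 0.60 and 1.37.

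PTBP1, the repressor of neuronal exons (chromosome 19, 797075 to 812327, plus strand), was the 1 of the 9 tested regulators that fell. At day 0 it stood at 67.7, 68.1 and 65.0 FPKM in the WT libraries, 68.7, 72.0 and 66.4 in C14R and 71.5, 66.9 and 68.8 in the deletion. By day 18 it was at 26.0, 27.1 and 22.5 FPKM in the WT libraries, 20.8, 26.4 and 27.4 in C14R and 27.0, 26.6 and 25.8 in the deletion. No library of day 18 came near the lowest of day 0 (65.0), and the lowest value of all, 20.8, was in replicate 1 of C14R at day 18. Over the 9 libraries of each day the mean went from 68.3 ± 2.27 to 25.5 ± 2.29 FPKM (SD, n = 9), 0.373 times the starting level. The log2 difference was -1.38 ± 0.08 (SE) in WT, with an adjusted p of 5.4e-11 by limma and Benjamini-Hochberg, -1.45 in C14R and -1.35 in the deletion.

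PTBP2 (nPTB, chromosome 1, 96721665 to 96823738, plus strand), the neuronal relative whose mRNA PTBP1 itself represses by exon skipping and decay, differed far less between the days than PTBP1. Its day 0 values were 17.4, 18.3 and 19.1 FPKM in the WT libraries, 19.5, 18.6 and 17.7 in C14R and 16.6, 15.8 and 17.8 in the deletion. At day 18 they were 19.0, 20.8 and 21.5 FPKM in the WT libraries, 22.6, 18.8 and 19.5 in C14R and 20.4, 19.4 and 19.1 in the deletion. The days overlapped in WT and in C14R and were apart in the deletion, and over all libraries the mean rose 1.13-fold. The log2 difference passed the threshold in the deletion (0.22 ± 0.07 SE, limma with Benjamini-Hochberg adjusted p = 0.0070) and, narrowly, in WT (0.15, adjusted p = 0.0488), and did not in C14R (0.12, 95% interval -0.03 to 0.26, adjusted p = 0.130). The WT call was kept under 5 of the 10 other settings and lost under 5 and without any 1 of 12 libraries. It was lost with the replicate number as a block (limma with Benjamini-Hochberg adjusted p = 0.0583), with median-of-ratios scaling (0.106), with quantile normalization (0.0994) and without single libraries (up to 0.172). The largest values came with small RNA genes left out, at 0.36 in WT, 0.30 in C14R and 0.44 in the deletion, and the C14R value was 0.04 without replicate 1 of day 18.

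The balance between the pair shifted towards PTBP2. The ratio of PTBP2 to PTBP1 was 0.258, 0.269 and 0.294 in WT, 0.284, 0.258 and 0.267 in C14R and 0.232, 0.236 and 0.258 in the deletion at day 0. It was 0.732, 0.768 and 0.956, 1.09, 0.709 and 0.712, and 0.757, 0.729 and 0.738 at day 18. All 9 libraries of day 18 lay above all 9 of day 0, and PTBP2 exceeded PTBP1 in 1 library, replicate 1 of C14R. The mean log2 ratio rose by 1.60, from -1.94 ± 0.11 to -0.34 ± 0.22 (SD, n = 9), with an exact two-sided permutation p of 4.1e-05, the smallest that 9 against 9 libraries can give and the same after adjustment over the 6 ratios and shares tested. Within constructs the rise was 1.57 in WT, 1.60 in C14R and 1.62 in the deletion, where 3 against 3 libraries cannot go below an exact p of 0.1. A ratio within a library does not depend on how libraries were scaled against each other. It is built from the PTBP1 and PTBP2 values already given, so its p is not separate evidence of a change. That holds for the other ratios and shares below too, and each pools the 3 constructs by day. Other gene pairs were not tested this way.

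DLG4, which encodes the postsynaptic protein PSD-95 and is the other gene listed here as repressed by PTBP1 through exon skipping, was higher in WT at day 18 by 0.99 on the log2 scale (limma with Benjamini-Hochberg adjusted p = 6.0e-11). Both genes of that list were thus called higher, PTBP2 with the limits just given, as were 38.2% of all genes. PTBP3, the paralog found in blood cells, rose by 0.52, and HNRNPL, a distant relative of PTBP1 that binds CA-rich RNA, fell by 0.68. HNRNPLL, a relative of HNRNPL known from lymphocytes, had a difference of -0.05 and did not pass the threshold. With small RNA genes left out and the libraries rescaled, that value became 0.15 and passed (limma with Benjamini-Hochberg adjusted p = 0.0277).

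The 3 neuronal ELAVL genes all rose, by unequal factors. ELAVL2 (HuB, chromosome 9, 23690104 to 23826337, minus strand) was at 8.47, 10.1 and 9.08 FPKM in the WT libraries, 9.44, 8.26 and 9.30 in C14R and 8.26, 8.19 and 8.44 in the deletion at day 0. At day 18 it was at 23.2, 22.5 and 22.1 FPKM in the WT libraries, 25.8, 20.1 and 23.2 in C14R and 22.3, 21.3 and 23.3 in the deletion. The groups of each construct were far apart, and the spread at day 18 was widest in C14R, with an SD of 2.82 FPKM. Its mean over all libraries rose 2.56-fold, and the log2 differences were 1.21, 1.26 and 1.33 ± 0.08 (SE) in WT, C14R and the deletion.

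ELAVL3 (HuC, chromosome 19, 11451326 to 11481046, minus strand) began higher, at 31.3, 31.0 and 30.7 FPKM in the WT libraries, 30.5, 31.8 and 32.4 in C14R and 26.8, 30.3 and 30.4 in the deletion. Its day 18 values were 68.9, 70.8 and 70.1 FPKM in the WT libraries, 77.6, 78.9 and 76.7 in C14R and 75.5, 75.6 and 79.3 in the deletion. The WT libraries of day 18 were all below those of both variants, and the lowest day 0 value, 26.8, belonged to replicate 1 of the deletion. Over all libraries the mean rose 2.45-fold, and the log2 difference was 1.15 ± 0.04 (SE) in WT (limma with Benjamini-Hochberg adjusted p = 1.8e-13), 1.27 in C14R and 1.37 in the deletion.

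ELAVL4 (HuD, chromosome 1, 50048014 to 50203786, plus strand), known for stabilising mRNAs such as that of GAP43, was the most abundant of the 10 genes throughout. It stood at 142, 133 and 136 FPKM in the WT libraries, 138, 133 and 136 in C14R and 139, 139 and 131 in the deletion at day 0, and the 3 constructs overlapped. At day 18 it was at 220.1, 223 and 237 FPKM in the WT libraries, 212, 215 and 197 in C14R and 196, 211 and 215 in the deletion, with the WT libraries above all of the variants' libraries. The rise over all libraries was 1.57-fold, with log2 differences of 0.72, 0.61 and 0.60 ± 0.05 (SE).

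The make-up of the neuronal ELAVL pool therefore shifted from ELAVL4 towards the other 2 genes. Of the summed FPKM of ELAVL2, ELAVL3 and ELAVL4, the share of ELAVL4 was 77.6 ± 1.07% at day 0 and 68.6 ± 1.95% at day 18 (SD, n = 9), while ELAVL3 went from 17.4 ± 0.88% to 24.1 ± 1.70% and ELAVL2 from 5.03 ± 0.39% to 7.28 ± 0.55%. For each share the days did not overlap, and the exact two-sided permutation p was 4.1e-05, the smallest possible. The ELAVL4 share differed between the days by -6.30 points in WT, -9.66 in C14R and -10.8 in the deletion, and the rise of the ELAVL3 share was 4.42, 7.30 and 8.30 points. At day 18 the ELAVL3 share was 22.1, 22.4 and 21.3% in WT. It was 24.6, 25.2 and 25.9% in C14R and 25.7, 24.6 and 25.0% in the deletion, without overlap with WT. At that day the FPKM of single genes did not overlap for 11.1% of all genes tested in C14R against WT. For the deletion against WT that held for 18.9%. The same WT libraries serve in both comparisons, and the difference in shares between constructs was not tested.

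ELAVL1 (HuR), the member of the family found in nearly all cells, fell by 0.23 in WT (log2 scale, limma with Benjamini-Hochberg adjusted p = 3.7e-05), from a mean of 29.3 to 24.8 FPKM. That fall was -0.03 and not past the threshold with small RNA genes left out and rescaled. Of 8 mRNAs listed as bound by ELAVL4, 5 rose and 3 fell in WT, where 38.2% of all genes rose and 34.0% fell. Their median log2 difference was 0.76, and a link to ELAVL4 was not tested. ACHE, which encodes acetylcholinesterase, rose by 3.71 and MAPT, which encodes the microtubule protein tau, by 3.01, whereas CDKN1A, which encodes the cell cycle inhibitor p21, fell by 2.75. NOVA1 is also 1 of these 8 mRNAs.

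**Figure D3:**
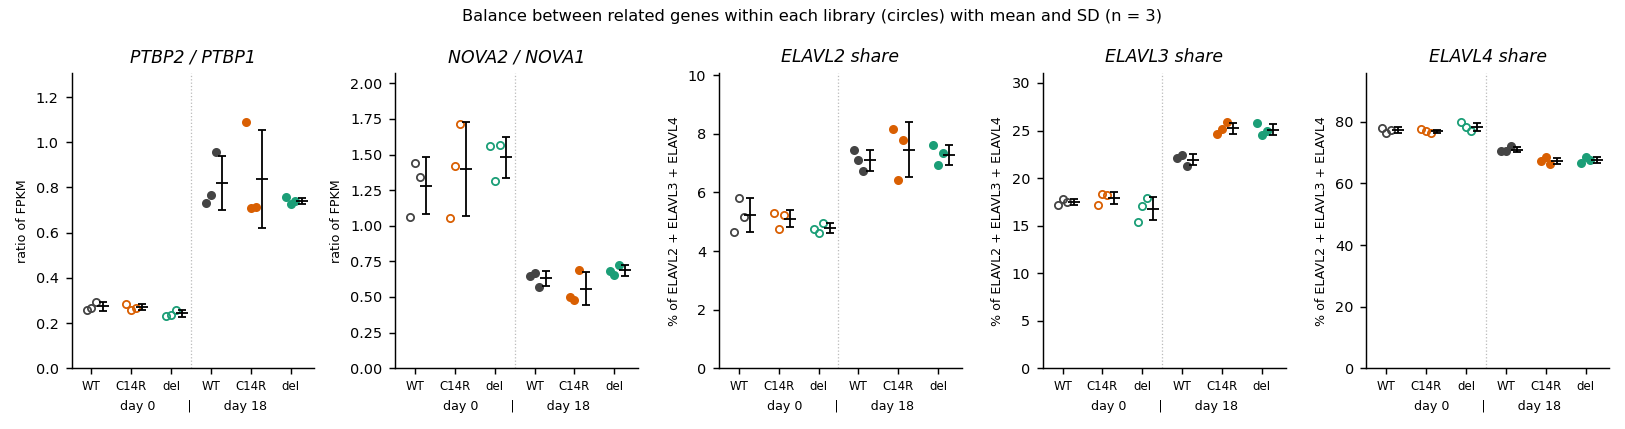
Ratio of PTBP2 to PTBP1 and of NOVA2 to NOVA1 (vertical axis, ratio of FPKM) and share of each gene in the sum of ELAVL2, ELAVL3 and ELAVL4 (vertical axis, %) in each of the 18 libraries, by construct and day, with mean and SD of 3 libraries. In every panel the 9 libraries of day 18 do not overlap the 9 of day 0, and replicate 1 of C14R at day 18 has the highest PTBP2 to PTBP1 ratio, 1.09.

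NOVA1 and NOVA2, KH-domain proteins that bind YCAY clusters, parted from each other. NOVA1 (chromosome 14, 26443093 to 26597754, minus strand) was at 7.01, 5.49 and 5.33 FPKM in the WT libraries, 6.64, 5.54 and 4.96 in C14R and 5.02, 5.38 and 4.80 in the deletion at day 0. At day 18 it was at 12.9, 11.6 and 13.7 FPKM in the WT libraries, 12.7, 15.1 and 11.8 in C14R and 11.7, 12.9 and 11.4 in the deletion. All day 18 libraries were above all day 0 libraries, and the mean rose 2.27-fold. The log2 difference was 0.99 ± 0.11 (SE) in WT (limma with Benjamini-Hochberg adjusted p = 2.4e-07), 1.08 in C14R and 1.10 in the deletion.

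NOVA2 (chromosome 19, 45933734 to 45973546, minus strand) showed no called change. Its values were 7.42, 7.93 and 7.15 FPKM in the WT libraries, 7.02, 7.88 and 8.49 in C14R and 7.84, 7.07 and 7.52 in the deletion at day 0. They were 8.36, 7.76 and 7.85 FPKM in the WT libraries, 6.40, 7.23 and 8.13 in C14R and 7.98, 8.41 and 8.31 in the deletion at day 18. The days overlapped in WT and C14R, the deletion's day 18 libraries lay just above its day 0 libraries, and replicate 1 of C14R at day 18 was the lowest of all. The log2 difference was 0.08 (95% interval -0.08 to 0.24) in WT, -0.09 (-0.25 to 0.07) in C14R and 0.12 (-0.04 to 0.28) in the deletion, with adjusted p-values of 0.346, 0.274 and 0.153 by limma and Benjamini-Hochberg. With small RNA genes left out and rescaled, NOVA2 passed in WT at 0.29 (adjusted p = 0.0039) and in the deletion at 0.34, so no direction is given for it.

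Which gene of the pair had the higher FPKM changed between the days. The log2 ratio of NOVA2 to NOVA1 went from 0.45 ± 0.24 to -0.69 ± 0.21 (SD, n = 9), a difference of -1.14 with an exact two-sided permutation p of 4.1e-05, again the smallest possible. In FPKM, NOVA2 exceeded NOVA1 in all 9 libraries of day 0 and in none of day 18. The day 0 ratio was as low as 1.06, in replicate 1 of WT and of C14R. By construct the difference was -1.01 in WT, -1.32 in C14R and -1.10 in the deletion.

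RBFOX2 and RBFOX1, which bind the GCAUG motif beside regulated exons, stood at opposite ends of the range. RBFOX2 (chromosome 22, 35738736 to 36028425, minus strand) was at 74.9, 77.1 and 80.0 FPKM in the WT libraries, 78.1, 79.1 and 79.7 in C14R and 74.6, 78.0 and 75.2 in the deletion at day 0. By day 18 it was at 124, 126 and 126 FPKM in the WT libraries, 136, 130.1 and 131 in C14R and 129.9, 129 and 131 in the deletion. The 2 days were widely apart and the replicates tight, with an SD of 0.92 FPKM in WT at day 18. The rise was 1.67-fold over all libraries, with log2 differences of 0.69, 0.74 and 0.77 ± 0.03 (SE) and an adjusted p of 3.8e-12 in WT by limma and Benjamini-Hochberg.

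RBFOX1 (chromosome 16, 5239802 to 7713338, plus strand), the form best known from mature neurons, heart and muscle, stayed under 1 FPKM in all 18 libraries. It was at 0.326, 0.290 and 0.378 FPKM in the WT libraries, 0.617, 0.421 and 0.463 in C14R and 0.635, 0.507 and 0.434 in the deletion at day 0. At day 18 it was at 0.101, 0.235 and 0.234 FPKM in the WT libraries, 0.249, 0.0890 and 0.117 in C14R and 0.204, 0.0394 and 0.185 in the deletion. Each construct's day 18 libraries lay below its day 0 libraries, for which the exact two-sided permutation p is 0.1, the smallest that 3 against 3 can give. The same exact p of 0.1 held for C14R and the deletion against WT at day 0, where the WT libraries were the lowest (0.1 again being the smallest possible). Both comparisons use the same 3 WT libraries, and groups were without overlap for 9.47% and 18.0% of all genes tested. Neither difference between constructs passed the threshold when tested by limma without the minimum. Tested without the minimum, the log2 difference by day was -0.16 in WT (limma with Benjamini-Hochberg adjusted p = 0.0790), -0.38 in C14R (0.00043) and -0.42 in the deletion (0.00019). RBFOX3 (NeuN), the family's marker of mature neurons, was as low, between 0.0637 and 0.502 FPKM in all libraries, and the exact p by day was 0.7 in WT, 1 in C14R and 0.2 in the deletion. RBFOX2 thus made up nearly all RBFOX RNA measured. The log2 ratio of RBFOX2 to RBFOX1 rose from 7.46 to 9.84 (exact permutation p = 4.1e-05), by 1.59 in WT, 2.59 in C14R and 2.96 in the deletion. The denominator of this ratio was under 1 FPKM in every library, so its size is uncertain. In the deletion at day 18 the log2 ratios were 9.31, 11.7 and 9.47. Differences in this ratio between constructs were not tested.

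SRRM4 (chromosome 12, 118981495 to 119163051, plus strand), the neural activator of microexons, rose from a low level. It was at 4.85, 5.57 and 5.77 FPKM in the WT libraries, 5.45, 5.44 and 5.31 in C14R and 4.95, 4.92 and 4.92 in the deletion at day 0. At day 18 it was at 8.67, 9.58 and 9.62 FPKM in the WT libraries, 9.64, 9.84 and 9.11 in C14R and 9.20, 9.26 and 9.72 in the deletion. No day 18 library reached down to the highest of day 0, 5.77, and the 3 deletion libraries of day 0 were within 0.02 FPKM (SD) of each other. The mean rose 1.79-fold, and the log2 difference was 0.69 ± 0.06 (SE) in WT (limma with Benjamini-Hochberg adjusted p = 1.5e-08), 0.72 in C14R and 0.81 in the deletion. SRRM3, its paralog that activates an overlapping set of microexons, rose by 0.73 in WT (adjusted p = 3.9e-08 in the same fit).

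In none of these genes did a difference between constructs pass the threshold. C14R against WT at day 0 called 0 of the 9 genes and 0% of all genes by limma with Benjamini-Hochberg adjustment, and 0 of the 9 had an unadjusted p under 0.05, against 2.81% of all genes. The 9 log2 differences lay between -0.05 and 0.05, and their 95% intervals between -0.27 and 0.21. The deletion against WT at day 0 called 0 of the 9 and 0.0290% of all genes, again with 0 of the 9 under an unadjusted 0.05, where 6.22% of genes were. ELAVL2 and ELAVL3 were lower in the deletion without overlap, by -0.14 and -0.09, as groups were without overlap for 18.0% of all genes, and the intervals of the 9 genes reached from -0.41 to 0.21.

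At day 18 the differences between C14R and WT called 0 of the 9 genes and 0.0363% of all genes, and 3 of the 9 had an unadjusted p under 0.05, against 11.1% of all genes. The 3 were ELAVL3, higher in C14R by 0.15 (95% interval 0.06 to 0.24, limma with Benjamini-Hochberg adjusted p = 0.179), ELAVL4, lower by -0.13 (-0.22 to -0.03, adjusted p = 0.302), and RBFOX2, higher by 0.08 (0.01 to 0.15, adjusted p = 0.387). They were also the 3 without overlap between groups, as were 11.1% of all genes. The deletion against WT at day 18 called 0 of the 9 and 0.0725% of all genes, with ELAVL3 (0.13, 0.04 to 0.23, adjusted p = 0.258) and ELAVL4 (-0.13, -0.23 to -0.03, adjusted p = 0.299) under an unadjusted 0.05, against 11.4% of genes. ELAVL3, ELAVL4 and RBFOX2 were without overlap here too, as were 18.9% of all genes. Both comparisons use the same 3 WT libraries, so values that are alike in C14R and the deletion are not separate evidence. The shares of all genes called at day 18 moved with single libraries and settings. C14R against WT called 5 genes here, 126 (0.914%) without replicate 2 of C14R at day 18 and 205 (1.49%) with array weights, and the deletion against WT called 10, 51 (0.370%) without replicate 1 of C14R at day 18 and 95 (0.689%) with array weights. None of the 9 genes was called under any of these. Over the 10 other settings, ELAVL4 in C14R against WT had limma and Benjamini-Hochberg adjusted p-values from 0.0593 to 0.946.

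**Figure D4:**
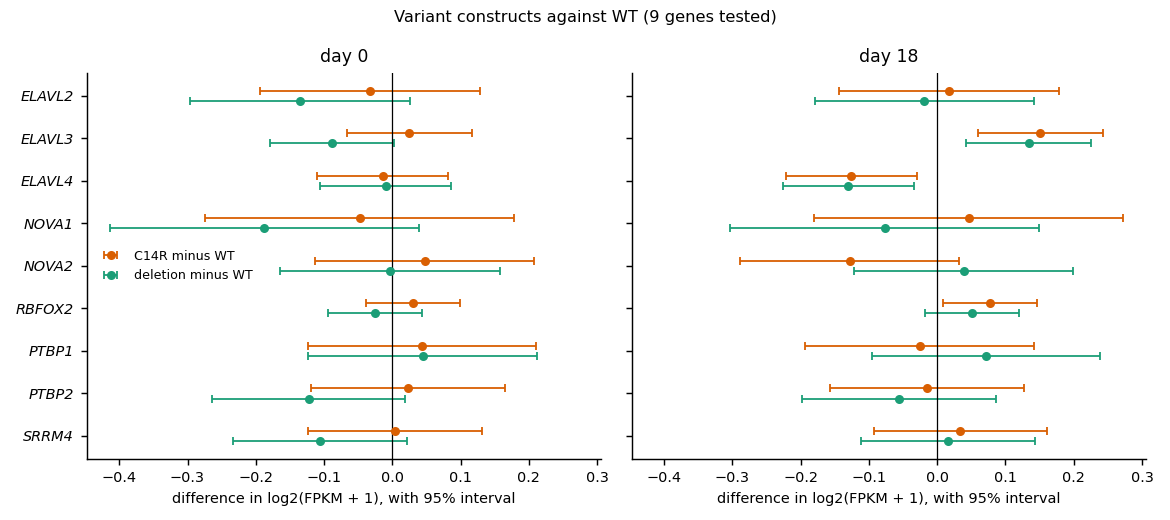
Difference of C14R (orange) and deletion (green) from WT in log2(FPKM + 1) (horizontal axis) with 95% intervals from limma for the 9 genes tested (vertical axis), at day 0 (left) and day 18 (right). No difference passes the adjusted threshold; at day 18 ELAVL3 lies at 0.15 and 0.13 and ELAVL4 at -0.13 in both variants.

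The comparison of the variants with each other, which uses no WT library, called 0 of the 9 genes at either day. At day 0 it called 0.0580% of all genes (0.689% with array weights), and 2 of the 9 had an unadjusted p under 0.05 against 9.84% of genes: ELAVL3 (0.11 higher in C14R, limma with Benjamini-Hochberg adjusted p = 0.400) and PTBP2 (0.15 higher, adjusted p = 0.493). ELAVL3, RBFOX2 and SRRM4 were higher in C14R without overlap, as groups were without overlap for 21.3% of all genes. At day 18 it called 0.0290% of all genes, and 1 of the 9 was under an unadjusted 0.05, against 11.2% of genes, namely NOVA2 (-0.17, adjusted p = 0.444), for which the groups overlapped. For ELAVL3 and ELAVL4 at day 18 the variants differed by 0.02 (95% interval -0.07 to 0.11) and 0.00 (-0.09 to 0.10).

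Whether the difference between the days was of another size in a variant than in WT was tested as an interaction. For C14R, 0 of the 9 genes and 0% of all genes passed, and 0 of the 9 had an unadjusted p under 0.05, against 5.73% of genes. For the deletion, 0 of the 9 passed where 0.0145% of all genes did, and 1 of the 9, ELAVL3, had an unadjusted p under 0.05, against 7.36% of genes. ELAVL3 rose by 0.22 more on the log2 scale in the deletion than in WT (95% interval 0.09 to 0.35, limma with Benjamini-Hochberg adjusted p = 0.355). Over the 9 genes the interaction intervals reached from -0.40 to 0.41 for C14R and from -0.26 to 0.43 for the deletion.

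Of 29 RNA-binding proteins with roles in neurons or development (CELF, MBNL, QKI, MSI, CPEB, STAU, FMR1, IGF2BP, LIN28 and KHDRBS families), 25 were tested, and in WT 10 rose, 12 fell and 3 did not pass, with a median log2 difference of -0.13, where 38.2% of all genes rose and 34.0% fell. With small RNA genes left out the median changed sign, with 12 of 26 higher, 10 lower and a median of 0.06. IGF2BP2, an mRNA-binding protein of fetal and tumour cells, fell by 1.93, CELF6, a brain-enriched splicing factor, rose by 1.86, and KHDRBS3 (SLM2, a neuronal splicing factor) fell by 1.29. Among the 6 paralogs of the 10 genes, 5 were tested, of which 2 rose and 2 fell with a median of -0.05 (0.15 with small RNA genes left out), and HNRNPL and HNRNPLL are counted among the hnRNP genes too.

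The general splicing factors were mostly lower at day 18 in WT, where 34.0% of all genes fell and 38.2% rose. Of 23 hnRNP genes, which bind nascent RNA and often repress exons, 19 fell, 1 rose and 3 did not pass, with a median of -0.66. The log2 differences of HNRNPM, HNRNPD and HNRNPF were -0.97, -0.89 and -0.86. Of 14 genes for serine/arginine-rich splicing activators, 9 fell, 2 rose and 3 did not pass, with a median of -0.40. Those of SRSF2, SRSF7 and SRSF3 were -1.06, -0.98 and -0.89. The medians of both lists lay below that of all genes, 0.03, and the median of the 9 regulators lay above it. With small RNA genes left out and rescaled, 16 hnRNP genes fell and 4 rose, with a median of -0.45. Of the serine/arginine-rich genes 9 then fell and 4 rose, with a median of -0.19.

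REST, the repressor of neuronal genes in non-neuronal cells whose targets include SRRM4, fell by 0.40 in WT (log2 scale, limma with Benjamini-Hochberg adjusted p = 6.0e-06), and no WT library of day 18 was above 15.8 FPKM while none of day 0 was under 20.1. Its list, with corepressors, small phosphatases and host genes of neuronal microRNAs, had 10 of 13 entries tested, of which 1 rose, 5 fell and 4 did not pass, with a median of -0.21. Of all genes 38.2% rose and 34.0% fell. With small RNA genes left out and rescaled, 2 of the list rose and 4 fell, with a median of -0.08. CTDSP2, CTDSP1 and CTDSPL, the small phosphatases that act with REST, fell, with differences of -1.11, -0.97 and -0.59.

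**Figure D5:**
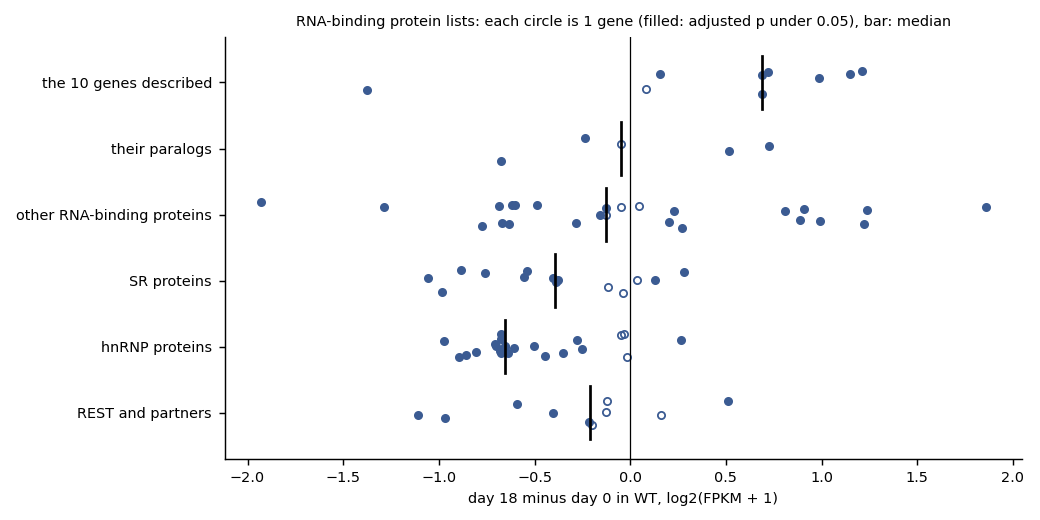
Difference between day 18 and day 0 in WT in log2(FPKM + 1) (horizontal axis) for each tested gene of 6 lists (vertical axis). Filled circles passed the adjusted threshold of 0.05, open circles did not, and bars are list medians, from 0.69 for the neuronal regulators to -0.66 for the hnRNP proteins.

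Markers of cell state moved with the same contrast, in which 38.2% of all genes rose and 34.0% fell in WT. Of 10 neuron markers 9 were tested, as RBFOX3 lay under the minimum. Of the 9, 8 rose and 1 did not pass in WT, with a median of 1.19, led by NEFL (1.75), SNAP25 (1.73) and SYN1 (1.62). The summed FPKM of the list lay between 883 and 938 at day 0 and between 1766 and 1967 at day 18. All 5 proliferation genes fell, with a median of -1.33 (BIRC5 -1.91, CCNB1 -1.84 and CDK1 -1.33), and their sum lay between 253 and 282 at day 0 and between 95.1 and 123 at day 18. All 7 tested of 9 markers of mesenchymal-type neuroblastoma cells fell, with a median of -2.03 (FN1 -3.59, VIM -3.49 and CD44 -3.10), and their sum lay between 679 and 843 at day 0 and between 63.5 and 70.8 at day 18, with PRRX1 at 0 in the WT libraries of day 18. Their part in the changes of the 10 genes was not tested.

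The line's own identity was checked with 10 sympathetic markers, whose sum lay between 808 and 847 at day 0 and between 1059 and 1244 at day 18. Of the 9 tested, 3 rose, 4 fell and 2 did not pass in WT (median -0.03, or 0.18 with small RNA genes left out), with GATA2 lower by -1.88 and DBH, the enzyme that makes noradrenaline, higher by 2.78. Glial markers were low, with a sum between 3.15 and 4.83 at day 0 and between 7.52 and 9.34 at day 18. Of these 7, 2 passed the minimum and rose, among them S100B by 1.45, while GFAP was at or below 0.293 FPKM in every library and OLIG2 at 0 in every group but C14R at day 18.

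The regulators that changed had many companions. The gene with the most similar profile over the 18 libraries (Pearson's r of log2(FPKM + 1), given as a description, since all points share the contrast of days) was RALGPS2 for ELAVL2 (r = 0.996), MAP6 for ELAVL3 (0.998), IL6ST for ELAVL4 (0.993) and DNAJC28 for NOVA1 (0.985). It was ZNF608 for RBFOX2 (0.998), RPLP0 for PTBP1 (0.997) and PCLO for SRRM4 (0.995). For each of these 7 genes between 1361 and 2339 genes had an r over 0.95. NOVA2 and PTBP2 had none, and their most similar genes were HRH3 (0.824) and GPATCH8 (0.926).

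The start regions of 3 genes are printed for the differing behaviour of the genes behind them: PTBP1, which fell, SRRM4, which rose, and NOVA2, which showed no called change. Since the differentiation medium held dibutyryl cyclic AMP and retinoic acid, capitals mark matches to the half-sites TGACG of the cAMP response element and AGGTCA of retinoid receptors, on either strand. The windows, from RefSeq on GRCh38.p14, run from 250 bases before to 50 bases after the outermost start and are written 5′ to 3′ on the gene's strand: chr19:797202-797501 plus for PTBP1, chr12:118981291-118981590 plus for SRRM4 and chr19:45973816-45974115 minus for NOVA2.
PTBP1: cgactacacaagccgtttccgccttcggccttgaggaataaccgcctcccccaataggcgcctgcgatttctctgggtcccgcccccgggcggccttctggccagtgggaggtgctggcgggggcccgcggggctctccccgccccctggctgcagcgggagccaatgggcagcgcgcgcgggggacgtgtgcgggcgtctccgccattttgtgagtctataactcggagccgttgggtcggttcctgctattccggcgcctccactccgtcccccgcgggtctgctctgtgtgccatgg
SRRM4: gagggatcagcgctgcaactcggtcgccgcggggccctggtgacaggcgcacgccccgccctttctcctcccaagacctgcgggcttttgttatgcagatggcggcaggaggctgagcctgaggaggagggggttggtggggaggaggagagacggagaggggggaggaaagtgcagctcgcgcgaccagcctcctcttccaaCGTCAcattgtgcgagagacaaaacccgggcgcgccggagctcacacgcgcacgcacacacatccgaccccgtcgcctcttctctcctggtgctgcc
NOVA2: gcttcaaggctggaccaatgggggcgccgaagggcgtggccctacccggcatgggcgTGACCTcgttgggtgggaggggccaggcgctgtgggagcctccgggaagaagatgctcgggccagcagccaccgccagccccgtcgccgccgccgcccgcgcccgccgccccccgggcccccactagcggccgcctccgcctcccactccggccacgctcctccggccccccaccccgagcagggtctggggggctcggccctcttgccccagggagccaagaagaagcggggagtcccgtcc
The PTBP1 window held no match, the SRRM4 window 1 match to TGACG on the opposite strand and the NOVA2 window 1 match to AGGTCA on the opposite strand. The outermost windows of ELAVL2, ELAVL4 and NOVA1, which rose like SRRM4, held no match and are not printed. Those of PTBP2 and RBFOX1 held none either. Entries were found for 8 of the 10 genes, with 26 windows in all, and none for ELAVL3 and RBFOX2. TGACG was in 4 of the 26 windows (15.4%) and in 24.6% of all 35116 windows of that length, and AGGTCA in 6 of 26 (23.1%) and 13.8% of all. The full element TGACGTCA, which contains the half-site, was in 0 of 26 and in 1.85% of all, the direct repeat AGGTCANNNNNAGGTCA in 0 of 26 and in 0.0057% of all, and the E-box CACGTG in 2 of 26 (7.69%) and in 7.26% of all. Such matches describe letters only and were not tested against the changes.

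Several traits of the libraries moved with day. Relative depth, estimated from the steps of low FPKM values, was 59.0% to 84.5% of the deepest library at day 0 and 81.9% to 100% at day 18. The estimate is the most frequent ratio to replicate 1 of WT at day 18. That ratio held 1.8% to 3.0% of low genes at day 0 and 7.5% to 14.5% at day 18, so the day 0 estimates are the weaker. Depth cannot be told apart here from scaling between libraries. Small RNA genes, which are short and so weigh heavily in FPKM, made up 55.1% to 80.1% of summed FPKM at day 0 and 31.5% to 60.5% at day 18, with the lowest share in replicate 1 of C14R at day 18. That library also departed most from the other 2 of its group, with an SD of 0.27 over genes on the log2 scale against 0.16 to 0.22 for the other 17 libraries. Without it, 6 of the 9 genes rose and 1 fell in C14R, as with it, and PTBP1 differed by -1.33. With small RNA genes left out and libraries rescaled, the median over all genes in WT moved from 0.03 to 0.23 and the share of higher among called genes from 52.9% to 68.9%, while in WT 8 of the 9 regulators rose and PTBP1 still fell.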

How the data were processed

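The authors deposited 1 table of gene expression in FPKM, with 1 value per gene symbol and a column for each of 18 libraries, and 0 columns lacked a sample. The unit was read from the name of the deposited table, and its values do not contradict it. The submitters' processing notes list TopHat2, STAR, Cufflinks 2.2.1 and the build hg38, with no role or order. The annotation, the use of strand and any scaling between libraries are not given in the sources used here. Per the labels' protocols, Ribo-Zero removed ribosomal RNA and the NEBNext Ultra kit was used for library preparation. The depth in reads is unknown, since FPKM hold no counts, so values carry no counting intervals. Relative depth was read from the steps of low values.

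Libraries were grouped by construct and day from their titles. Genes with a mean of at least 1 FPKM (13785 of 26372, with 4960 at 0 throughout) were tested as log2(FPKM + 1), a pseudocount of 1, with limma 3.58.1 in R 4.3.3. All 6 groups entered 1 fit with a variance trend, and Benjamini-Hochberg adjustment ran over all tested genes within each of 11 comparisons. A gene was called at an adjusted p under 0.05. The script was tested on simulated data. Ratios and shares within libraries were compared by exact two-sided permutation in scipy 1.17.1. Positions, coding sequences and overlaps come from GENCODE release 29 on GRCh38, and start regions from RefSeq on GRCh38.p14.

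The 10 genes and 12 further lists were chosen with earlier results of these data known. All 10 genes were named in every comparison. For each other list its counts were given, with at most the 3 largest changes past the threshold by day in WT, and the paralogs in full. REST, PRRX1, GFAP and OLIG2 were named outside that rule. For each tested regulator the gene most like it was named. Alternatives were a pseudocount of 0.1, no minimum, a minimum of 5 FPKM, median-of-ratios scaling, quantile normalization, 2340 small RNA genes left out with rescaling, the replicate number as a block, only the libraries compared, array weights, no variance trend and each library left out in turn. Results for some marker genes are not reported here.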

Additional observations from a re-analysis of the deposited data

How the results depend on the processing

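Apart from PTBP2 and NOVA2, every call by day among the 9 tested genes kept its direction and its side of the threshold under all 10 planned settings and with each of the 18 libraries left out, and no difference between constructs and no interaction was called under any of them. Leaving out 1 library gave 6 to 7 genes higher in WT, 6 to 7 in C14R and 7 in the deletion. The WT call of PTBP2 (0.15, adjusted p = 0.0488) was lost with no minimum (limma with Benjamini-Hochberg adjusted p = 0.0659), median-of-ratios scaling (0.106), quantile normalization (0.0994) and no variance trend (0.0591), and without any 1 of 12 libraries. Those that move its value are replicates 1 and 2 of WT at day 0 (0.12 and 0.15) and replicates 2 and 3 of WT at day 18 (0.14 and 0.12), with an adjusted p of up to 0.172. The others, whose adjusted p lay between 0.0508 and 0.0575, are all 3 of C14R at day 0, replicate 1 of the deletion at day 0, replicate 3 of C14R at day 18 and all 3 of the deletion at day 18. In C14R, PTBP2 passed without replicate 2 of day 18 (0.17) and with small RNA genes left out (0.30). The NOVA2 difference in C14R was 0.075 with small RNA genes left out and 0.012 with array weights, in place of -0.09, and that of HNRNPLL in WT was 0.15 with small RNA genes left out; the cause was not tested. With no minimum, 2 genes were lower by day in C14R and 2 in the deletion, as RBFOX1 then entered the test. Of the list counts by day in WT, only those of rising genes among the serine/arginine-rich (1 to 4), hnRNP (1 to 4), REST (1 to 2), PTBP1-repressed (1 to 2) and sympathetic (3 to 5) lists and those of falling paralogs (1 to 2), falling mesenchymal markers and rising glial markers moved by more than 1.5 times. The count of 2 rising serine/arginine-rich genes was 1 without any 1 of 11 libraries (all 6 of WT and the deletion at day 0, all 3 of the deletion and replicates 2 and 3 of WT at day 18), the PTBP1-repressed count was 1 without the 12 libraries named for PTBP2, and the REST count of 1 was 2 without replicate 1 of WT at day 18. Within single constructs 3 against 3 libraries cannot pass 0.05, and the differences by day were 1.57, 1.60 and 1.62 for the log2 ratio of PTBP2 to PTBP1, -1.01, -1.32 and -1.10 for NOVA2 to NOVA1 and 1.59, 2.59 and 2.96 for RBFOX2 to RBFOX1 (WT, C14R and deletion). For the ELAVL shares they were 1.88, 2.36 and 2.51 points for ELAVL2, 4.42, 7.30 and 8.30 for ELAVL3 and -6.30, -9.66 and -10.8 for ELAVL4. The replicate numbers did not pair the libraries: over 45 pairs with the same number the deviations from group means correlated between -0.36 and 0.17, with 6 pairs over 0.1. With the replicate block 6 genes in place of 7 were higher in WT, since PTBP2 had an adjusted p of 0.0583 (limma with Benjamini-Hochberg), and no other call of the 9 genes changed.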
